A study of Saccharomyces cerevisiae with 6 samples.

Results

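The hexose transporters of budding yeast, Saccharomyces cerevisiae, and its 2 glucose sensors were followed in cells without the Golgi ion pump Pmr1. The genes were HXT1 to HXT7, GAL2, SNF3 and RGT2, taken by name, with the probe set of the highest mean signal for each. Of these 10 genes, 9 had a probe set that the array's probe annotation names for them, out of 5449 genes tested, and each of the 9 had 1 probe set. HXT6 had no probe set under its own name. It is a tandem neighbour of HXT7 with an almost identical coding sequence, and the probe set of HXT7 is of a kind (suffix _s_at) that can bind several near-identical transcripts. Its signal may therefore hold both HXT7 and HXT6, and the share of each cannot be told apart.

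Total RNA of 6 samples was measured, 3 of the wild type and 3 of the deletion strain, each on an Affymetrix expression array. The wild type was a MATa strain that carried the marker deletions ura3Δ0, leu2Δ0, his3Δ0 and met15Δ0, and the labels give its background as BY4147 in most places and as BY4741 in the genotype of the mutant. In the deletion strain, a single strain named NGY051, a kan marker replaced PMR1 in that background. Cells of both strains were in exponential phase in YPAD, a rich medium with glucose as its sugar, and both received 5 mM CaCl2, so that added calcium was common to all samples. Whether the replicates of a strain came from different cultures is not in the labels. The p-values reflect the variation among these 6 samples alone, part of which may be technical.

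Yeast takes up glucose by facilitated diffusion through a family of related hexose transporters that differ in affinity. HXT1 and HXT3 encode low-affinity transporters that serve when glucose is plentiful, whereas HXT2, HXT4, HXT6 and HXT7 encode transporters of higher affinity that are expressed when glucose is scarce. Snf3 and Rgt2 resemble transporters but act as receptors at the cell surface, Snf3 for low and Rgt2 for high glucose. Their signal leads to destruction of the corepressors Mth1 and Std1, which releases HXT promoters from the repressor Rgt1. A further route, through the kinase Snf1 and the repressors Mig1 and Mig2, shuts off the high-affinity genes in high glucose.

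The deleted gene was checked first. PMR1 had log2 signals of 11.81, 11.79 and 11.84 in the wild type and of 2.79, 3.45 and 3.16 in the deletion, where the array background was 4.23 to 4.31. Named probe sets with no match in the S. cerevisiae gene table were taken as those for the fission yeast S. pombe. The array background is their 95th percentile on the same array. For all 9 measured genes, every value of every array lay above it. Signals are relative to the other transcripts on the array, so less RNA per cell and fewer cells with the transcript cannot be told apart. Levels below are log2 signals of a single probe set each and are compared between strains only, not between genes.

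HXT4 and HXT7 fell the most of the 9 measured genes in the deletion strain. HXT4 was 3.59-fold lower and HXT7 2.75-fold lower, while the low-affinity genes HXT3 and HXT1 were 1.24-fold and 1.17-fold lower, and HXT5 was 1.55-fold lower with a less firm call. HXT2, GAL2, SNF3 and RGT2 did not pass the test. By limma, a linear model with moderated variances, with Benjamini-Hochberg adjustment over 5498 probe sets and a threshold of 0.05, 5 of the 9 genes were lower and 0 higher. Over all probe sets tested, 11.7% were lower and 17.5% higher by the same rule. The median log2 change was -0.22 over the 9 genes and 0.01 over all 5449 genes tested. The count of lower members was 3 without deletion replicate 1 and also when every probe set on the array was tested, since HXT1 and HXT5 then missed the threshold. No member was called higher under any of the 16 alternative settings.

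**Figure D1:**
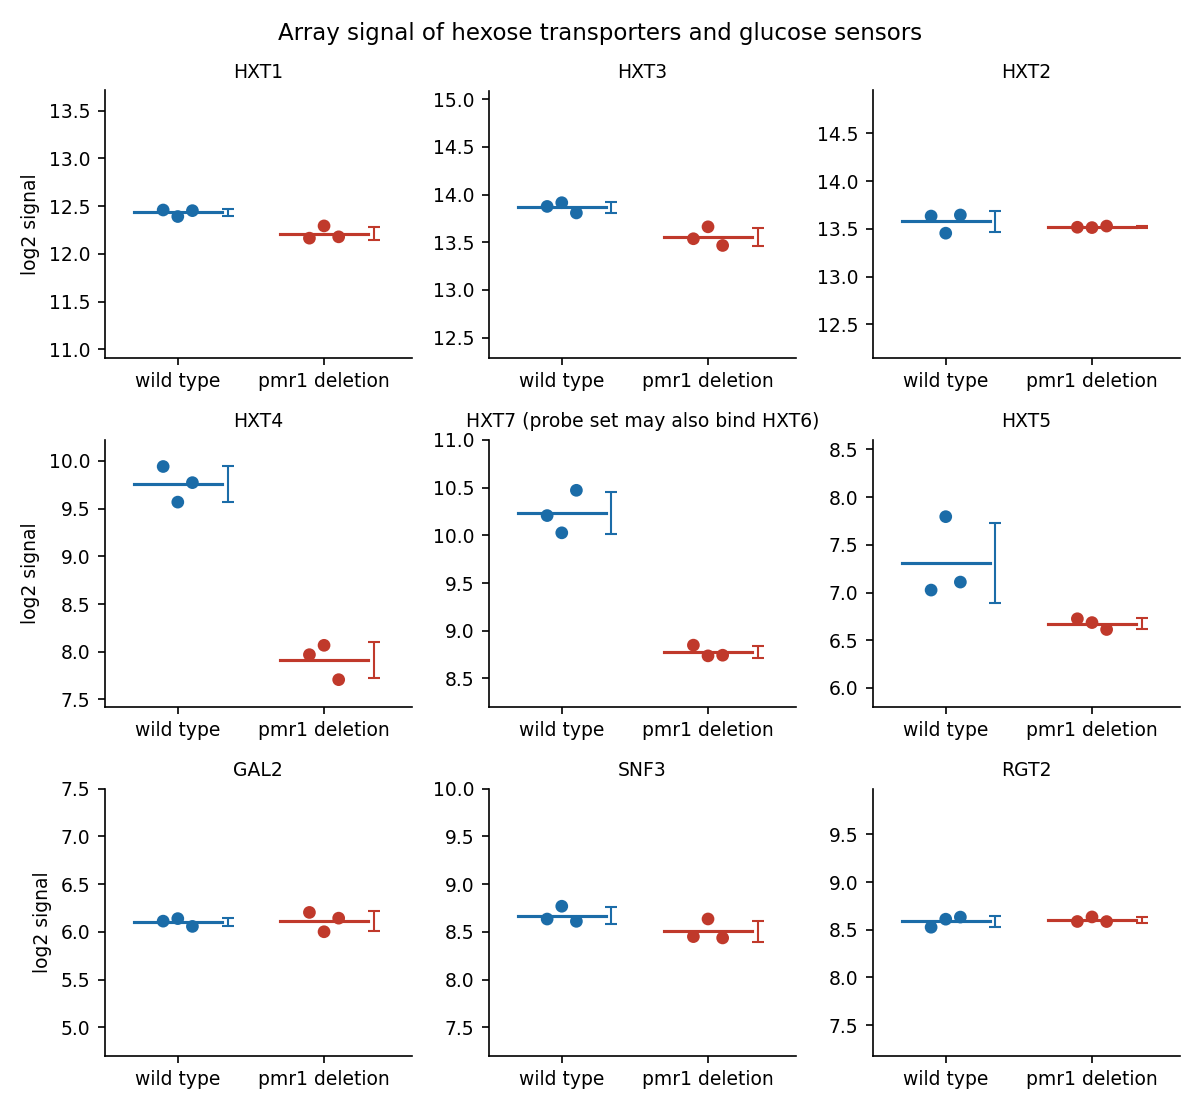
Log2 array signal of each gene on each of the 6 arrays (blue, wild type; red, pmr1 deletion), with the mean as a line and the SD as a bar; every panel spans the same number of log2 units. HXT4 and HXT7 drop far below their wild-type values, HXT1, HXT3 and HXT5 drop less without overlap of the groups, and HXT2, GAL2, SNF3 and RGT2 overlap.

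HXT4, a transporter of high affinity that is induced by low glucose, had wild-type values of 9.94, 9.57 and 9.77 and deletion values of 7.97, 8.07 and 7.71. The groups lay far apart, with a gap of 1.5 between the lowest wild-type and the highest deletion array. Its log2 change was -1.85 (SE 0.12, limma adjusted p = 0.000149), with a 95% interval of -2.13 to -1.56. The size of this change exceeded that of 99.8% of all tested probe sets, and 0.764% of them were lower by at least 2-fold. Over the alternatives its log2 change stayed between -1.94 and -1.74.

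The probe set of HXT7, whose product is a high-affinity transporter much used on low glucose and on other carbon sources, had wild-type values of 10.21, 10.03 and 10.47. The deletion arrays gave 8.85, 8.74 and 8.74, all below every wild-type value by 1.18 or more. The log2 change was -1.46 (SE 0.11, limma adjusted p = 0.000186; 95% interval -1.71 to -1.21). In the wild type, replicate 2 was the lowest of the 3 arrays for both genes, 0.29 below the mean of the other two for HXT4 and 0.31 below it for HXT7. Without it the changes were still past the threshold.

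HXT2, the other gene of this class with a probe set of its own, encodes a transporter that low glucose induces and high glucose represses. Its values were 13.63, 13.45 and 13.65 in the wild type and 13.52, 13.51 and 13.53 in the deletion. The deletion arrays lay within the range of the wild type. The log2 change was -0.06 (SE 0.056, limma adjusted p = 0.47), and its 95% interval of -0.19 to 0.07 does not reach the intervals of HXT4 and HXT7. Wild-type replicate 2 was again the lowest, 0.19 below the mean of the other two, and without it HXT2 was lower by a small margin (log2 change -0.12, adjusted p = 0.0403).

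The low-affinity genes fell by small amounts. HXT3, a transporter gene that is induced by glucose over a wide range, had values of 13.88, 13.91 and 13.81 in the wild type and 13.54, 13.66 and 13.47 in the deletion. HXT1, which is induced by high glucose, had 12.46, 12.39 and 12.45 in the wild type and 12.16, 12.29 and 12.18 in the deletion. For both genes all deletion arrays lay below all wild-type arrays, by a margin of 0.15 for HXT3 and 0.098 for HXT1. The log2 change was -0.31 (SE 0.058, limma adjusted p = 0.00813) for HXT3 and -0.22 (SE 0.046, limma adjusted p = 0.0125) for HXT1. The call of HXT3 held under all 16 alternatives, whereas that of HXT1 was lost without deletion replicate 1 (adjusted p = 0.0535) and when every probe set on the array was tested (0.0585).

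HXT5 encodes a transporter of moderate affinity that appears in slow growth, starvation and stress. Its wild-type values were 7.03, 7.79 and 7.11, and its deletion values 6.72, 6.68 and 6.61. Replicate 2 stood apart in the wild type, 0.73 above the mean of the other two. The groups did not overlap, and the log2 change was -0.64 (SE 0.19, limma adjusted p = 0.0438; 95% interval -1.08 to -0.19). Without wild-type replicate 2 the log2 change was -0.39 (adjusted p = 0.00263). Without wild-type replicate 3 or any 1 of the deletion replicates the adjusted p was 0.0565 to 0.111.

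Wild-type replicate 2 was also the highest wild-type array for other genes, 4 of which are given first. Relative to the mean of replicates 1 and 3 it was higher by 1.15 for HSP26 and 0.46 for HSP12, which encode small heat shock proteins, by 0.79 for DDR2, a stress-induced gene, and by 0.58 for HXK1, a hexokinase gene. These 4 genes were chosen after their values were seen. Genes of the lists below also had replicate 2 as their highest wild-type array. The wild-type values were 11.29, 11.77 and 11.31 for GLK1 and 8.35, 8.79 and 8.36 for PCK1. In others, such as HXT2 and HXT4, it was the lowest, so the pattern was neither general nor confined to the 4 genes. It did not stand high in MTH1 or the MIG genes. Its difference from that mean was 0.04 for MTH1, -0.15 for MIG1, 0.0003 for MIG2 and -0.026 for MIG3. HSP26 and HSP12 were lower in the deletion by a log2 change of -1.98 and -2.14, the same direction as HXT5. The part of this array in the result for HXT5 was not tested beyond leaving it out.

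GAL2 encodes the galactose permease, which also carries glucose and is silent unless galactose is present. Its values were 6.11, 6.14 and 6.06 in the wild type and 6.20, 6.0 and 6.14 in the deletion, and the groups overlapped. The log2 change was 0.01 (SE 0.058, limma adjusted p = 0.887), with a 95% interval of -0.12 to 0.15.

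Neither sensor gene passed the test. SNF3, for the sensor of low glucose, had values of 8.63, 8.77 and 8.61 in the wild type and 8.45, 8.64 and 8.44 in the deletion. Deletion replicate 2 lay within the wild-type range and the others below it. The log2 change was -0.16 (SE 0.068, limma adjusted p = 0.115; 95% interval -0.33 to -0.0025). This gene was near the threshold, and 5 of 16 alternatives called it lower, with adjusted p of 0.0153 to 0.0476. RGT2, for the sensor of high glucose, had values of 8.53, 8.61 and 8.63 in the wild type and 8.59, 8.63 and 8.59 in the deletion. The groups overlapped, and the log2 change was 0.01 (SE 0.041, limma adjusted p = 0.853; 95% interval -0.08 to 0.11). The SNF3 to RGT2 ratio within arrays changed by -0.18 between strains (two-sided exact permutation p = 0.2, 3 arrays against 3).

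**Figure D2:**
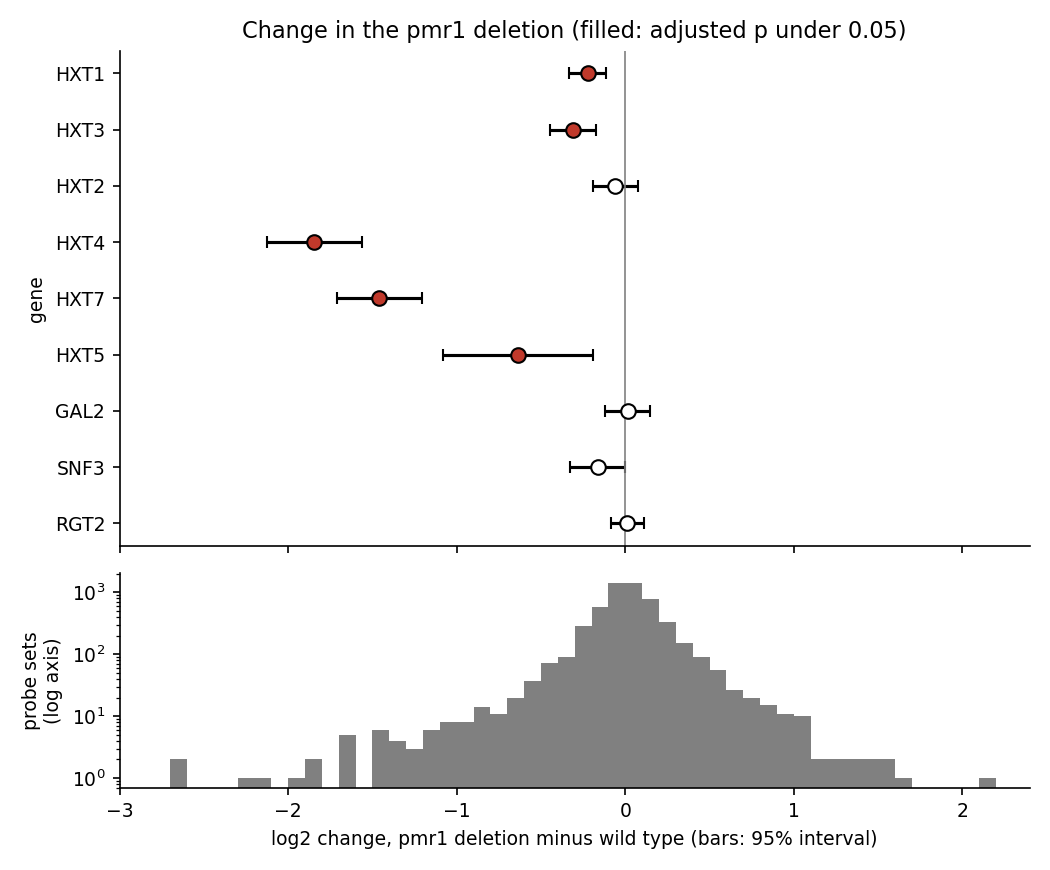
Top, log2 change of each gene in the pmr1 deletion relative to the wild type with its 95% interval from limma (filled, adjusted p under 0.05); bottom, the log2 changes of all 5498 tested probe sets on a log axis, of which 3 fall outside the range drawn. HXT4 at -1.85 and HXT7 at -1.46 lie in the thin lower tail, while HXT1, HXT2, HXT3, SNF3, RGT2 and GAL2 lie in its main body.

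The 3 arrays of each strain did not overlap for HXT1, HXT3, HXT4, HXT5 and HXT7, that is for 5 of 9 genes, beside 46.7% of all probe sets. This share is near that of the array as a whole and is no result about these genes. In each of the 5 a two-sided exact permutation test gave p = 0.1, the lowest value possible with 3 arrays a group.

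Several of these genes are neighbours on the chromosome. By the gene table of assembly R64, HXT4, HXT1 and HXT5 lie close together in that order, and HXT7, HXT6 and HXT3 lie close together elsewhere. Within each neighbourhood the changes were unequal. The HXT4 to HXT1 ratio within arrays changed by -1.62 on the log2 scale and the HXT7 to HXT3 ratio by -1.15. The HXT5 to HXT1 ratio changed by -0.41, with an SD of 0.46 over the wild-type arrays. For each of these 3 ratios the strains did not overlap, and the two-sided exact permutation p was 0.1 (0.133 adjusted over the 4 pairs compared, SNF3 with RGT2 included), so none could pass 0.05. These pairs were chosen after the values were seen. Of the genes flanking the groups, MSR1 beside HXT4 had a log2 change of -0.07 (limma adjusted p = 0.361), YDR341C beside HXT7 one of 0.02 (0.729) and SVF1 beside HXT3 one of -0.11 (0.0525). MRP1, the gene after SVF1, passed the test with a log2 change of -0.21 (SE 0.063, limma adjusted p = 0.0478), close in size to that of HXT1.

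**Figure D3:**
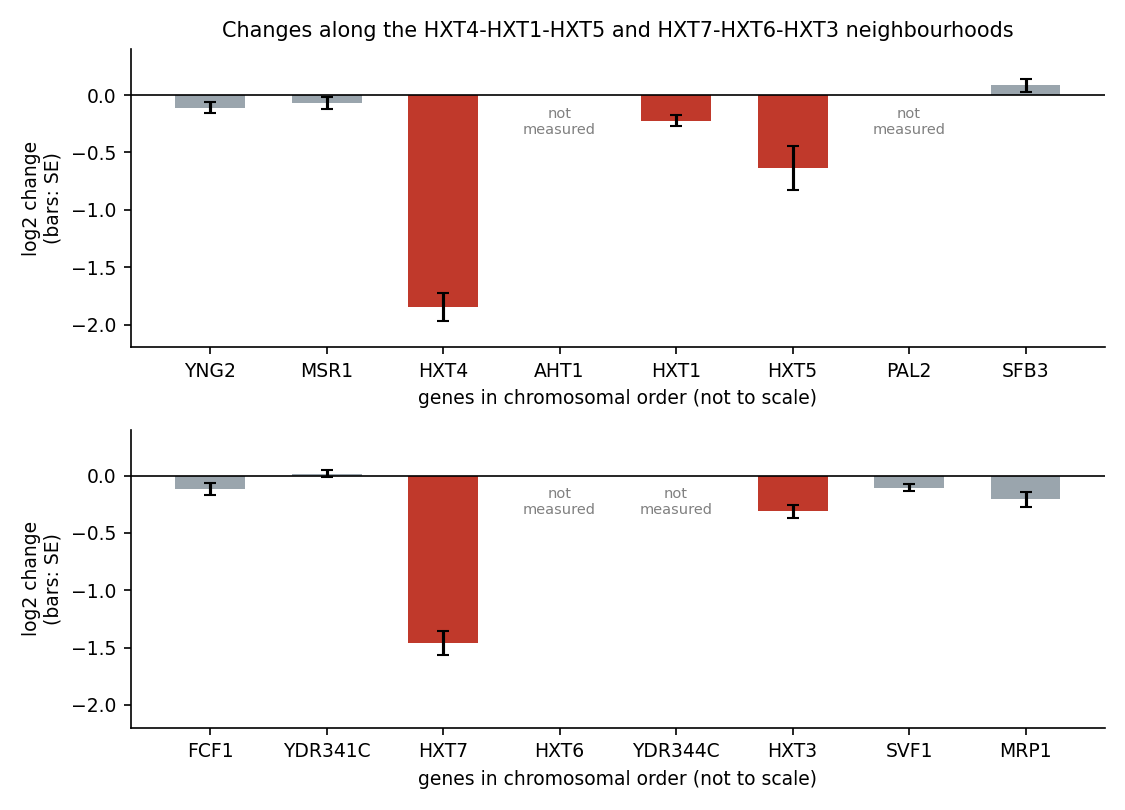
Log2 change in the pmr1 deletion (bars, with SE) for genes in chromosomal order along both hexose transporter neighbourhoods, not to scale; red bars are hexose transporter genes, and genes without a probe set are marked as not measured. HXT4 (-1.85) and HXT7 (-1.46) stand out beside HXT1 (-0.22), HXT3 (-0.31) and flanking genes between -0.21 and 0.08, with HXT5 (-0.64) in between.

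Among the genes that carry the sensors' signal to the HXT promoters, MTH1 was the 1 that passed the test. MTH1, the Rgt1 corepressor, had values of 9.07, 9.17 and 9.18 in the wild type and 7.86, 7.84 and 7.63 in the deletion. The strains were widely separated, and the log2 change was -1.36 (SE 0.068, limma adjusted p = 5.07e-05). Its paralog STD1 had a log2 change of -0.11 (limma adjusted p = 0.236) and the repressor RGT1 one of 0.05 (0.395). Of the 13 genes of this list, both sensors included, 1 was lower and 0 higher (11.7% and 17.5% of all probe sets), with a median log2 change of -0.0012 beside 0.01 over all genes. The other members of the list, which are the casein kinases YCK1 and YCK2, the ubiquitin ligase subunits GRR1, SKP1, CDC53 and CDC34, and the corepressor genes CYC8 and TUP1, had log2 changes between -0.07 and 0.16.

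In the Snf1 and Mig1 branch of glucose repression, repressor genes of the MIG family fell. MIG1, for the zinc-finger repressor under Snf1 control, had values of 10.78, 10.72 and 10.95 in the wild type and 10.20, 10.33 and 10.13 in the deletion, a log2 change of -0.60 (SE 0.077, limma adjusted p = 0.00194). Its relative MIG2 changed by -0.54 (SE 0.067, limma adjusted p = 0.00168) and MIG3, named after its value was seen, by -0.41 (limma adjusted p = 0.000368). In all 3 genes the strains did not overlap. The same held for 13 of the 21 measured genes of this list and for 46.7% of all probe sets. NRG1, another zinc-finger repressor of glucose-repressed genes, was higher by 0.49 (SE 0.082, limma adjusted p = 0.00545). Of the 21 measured genes of this list 3 were higher and 4 lower, MIG3 included, beside 17.5% and 11.7% of all probe sets, and the median log2 change was 0.0052. The kinase SNF1 itself had a log2 change of -0.03 (limma adjusted p = 0.685).

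Of 4 measured hexose kinase genes, which trap imported hexose as its phosphate, 1 was lower and 0 higher, beside 11.7% and 17.5% of all probe sets. HXK1, the hexokinase that glucose represses, had values of 9.83, 10.36 and 9.72 in the wild type and 8.91, 8.85 and 8.78 in the deletion, a log2 change of -1.13 (SE 0.15, limma adjusted p = 0.0025). HXK2, the main hexokinase on glucose, had a log2 change of 0.03 (limma adjusted p = 0.459), the glucokinase GLK1 one of 0.24 (0.199) and its paralog EMI2 one of 0.13 (0.29). GLK1 had wild-type values of 11.29, 11.77 and 11.31 and deletion values of 11.65, 11.67 and 11.76. EMI2 had 10.16, 10.47 and 10.21 in the wild type and 10.43, 10.35 and 10.43 in the deletion. Wild-type replicate 2 was thus the highest wild-type array for both, and its part in these results was not tested.

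**Figure D4:**
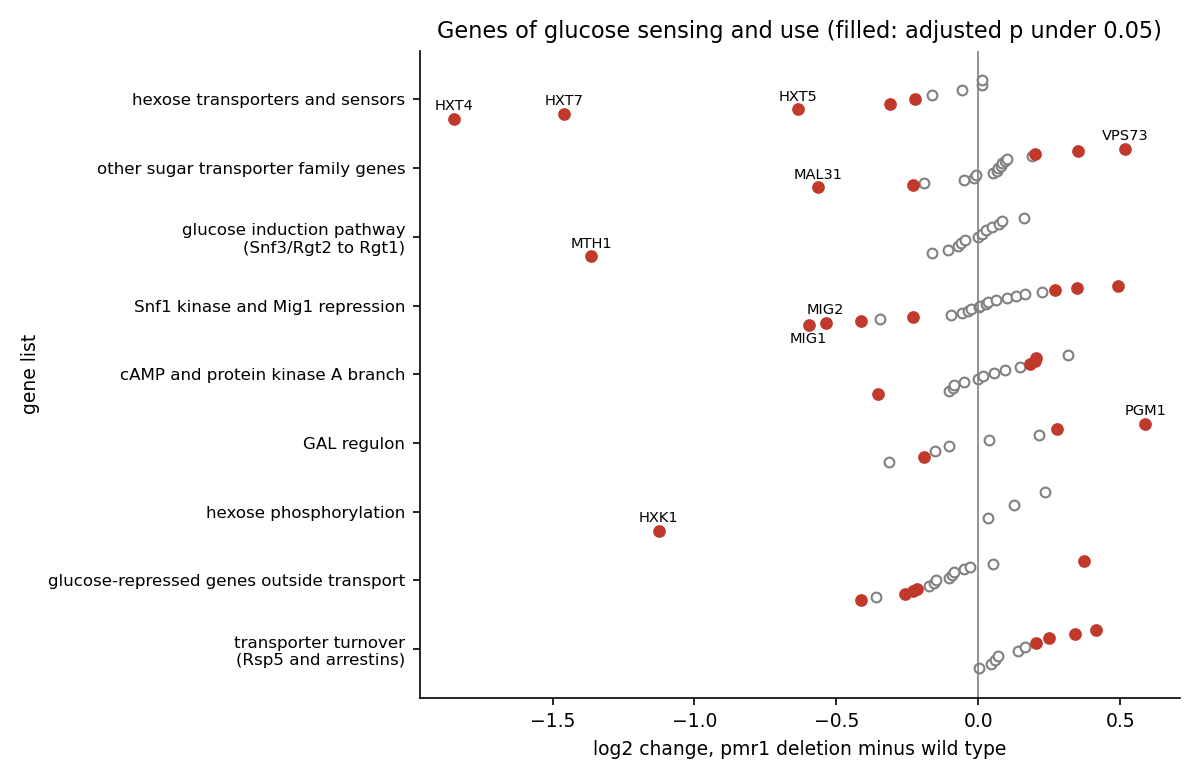
Log2 change in the pmr1 deletion for each measured gene of 9 lists of glucose transport, sensing and use (filled, adjusted p under 0.05; labelled, past the threshold and over 0.5 in size). Most points lie near 0; HXT4, HXT7, MTH1 and HXK1 are below -1.

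Of 15 measured glucose-repressed genes outside transport, 4 were lower and 1 higher (11.7% and 17.5% of all probe sets), with a median log2 change of -0.15 beside 0.01 over all genes. MLS1, the malate synthase of the glyoxylate cycle, had a log2 change of -0.41 (limma adjusted p = 0.00863), and SUC2, the invertase, one of -0.26 (0.00678). FDH1, a formate dehydrogenase, was higher by 0.37 (0.000274). In the GAL list, which holds GAL genes and others linked to galactose use, 2 of 8 were higher and 1 lower, near the 17.5% and 11.7% of all probe sets. PGM1, a phosphoglucomutase, was higher by 0.59 (limma adjusted p = 0.000249) and GAL80, the repressor of the pathway, by 0.28 (0.00252). PGM2, the other phosphoglucomutase gene of the list, went the other way without passing the test (log2 change -0.31, limma adjusted p = 0.0911). GAL10, the epimerase gene, was just past the threshold (log2 change -0.19, adjusted p = 0.0495), and 12 of 16 alternatives ended that call.

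In the remaining sugar transporter family, 3 of 17 measured genes were higher and 2 lower. These shares are near the 17.5% and 11.7% of all probe sets and are no result about the family. In 4 of the 17, HXT10, HXT13, HXT14 and HXT15, every array was below the array background, which leaves no level to compare. MAL31, a maltose permease, was lower by a log2 change of -0.57 (SE 0.044, limma adjusted p = 0.000251), and VPS73, a mitochondrial member of the family, was higher by 0.52 (SE 0.042, limma adjusted p = 0.000268). HXT9 was higher by 0.35 (limma adjusted p = 0.0411), but its other probe set had -0.02 (0.9), so its probe sets disagreed. Transporters of this family may share probes with near-identical copies.

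Genes for removal of transporters from the cell surface were higher where they passed the test. Hexose transporters are ubiquitinated by the ligase Rsp5, which arrestin-related adaptors bring to them, and are then degraded in the vacuole. Of the 10 measured genes 4 were higher and 0 lower, where 17.5% of all probe sets were higher and 11.7% lower, and the median log2 change was 0.15 beside 0.01 over all genes. The arrestins ROG3 and ROD1 were higher by 0.42 (SE 0.069, limma adjusted p = 0.00526) and 0.34 (SE 0.053, limma adjusted p = 0.00407). ECM21, a further arrestin, was higher by 0.25 (limma adjusted p = 0.0457), with a call that 8 of 16 alternatives ended. RSP5 had a log2 change of 0.05 (limma adjusted p = 0.345). In the cAMP and protein kinase A branch, which also reads glucose, 3 of 14 were higher and 1 lower, near the 17.5% and 11.7% of all probe sets. RAS1, a small GTPase that activates adenylate cyclase, was lower by a log2 change of -0.35 (limma adjusted p = 0.00679), while PDE1, a cAMP phosphodiesterase, and BCY1, the inhibitory subunit of the kinase, were higher by 0.21 (0.0196) and 0.20 (0.00838).

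Genes were also ranked by how closely their values followed those of HXT4 and HXT7 over the 6 arrays, each gene centred on its own mean. The measure was the root mean square difference in log2 units, over 5448 other genes, and is a description without a test. YKR075C, an uncharacterised gene, was closest to HXT4 (0.16), followed by HXT7 (0.25) and by INA1 (0.27). Closest to HXT7 was MPC3 (0.11), for a subunit of the mitochondrial pyruvate carrier, followed by MTH1 (0.15) and INA1 (0.17). Each of these genes was lower in the deletion by a log2 change between -1.81 for YKR075C and -1.26 for MPC3. Since HXT4 and HXT7 differed strongly between the strains, the measure favours genes with a fall of similar size. That these genes were lower therefore follows from the ranking and is no separate result.

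**Figure D5:**
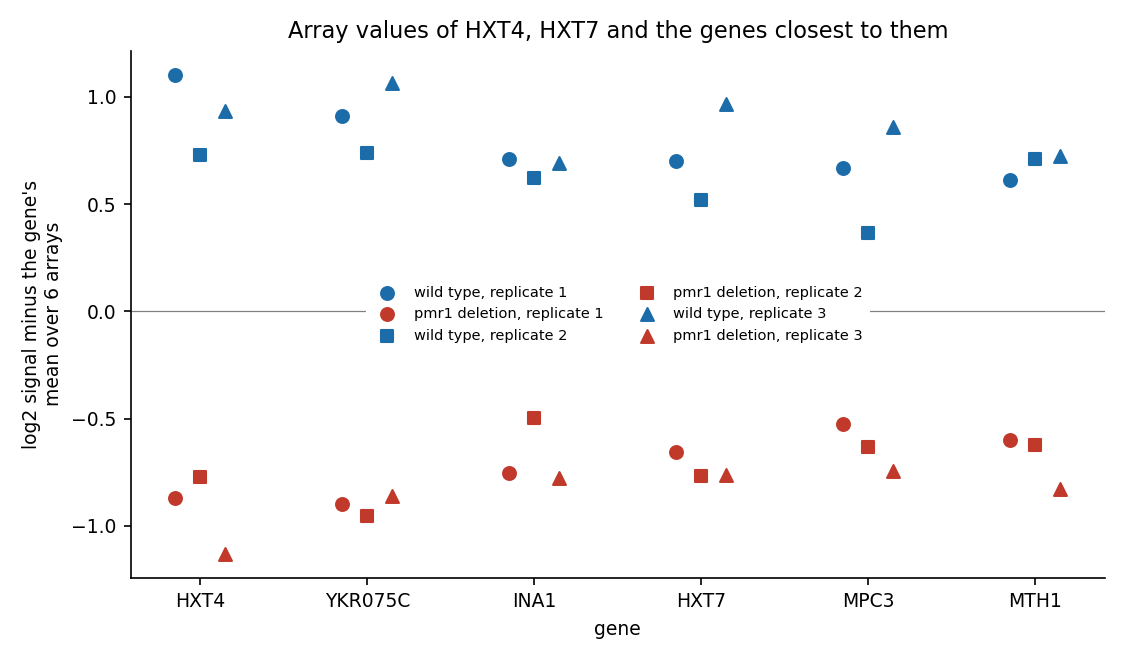
Log2 signal on each of the 6 arrays for HXT4, HXT7 and the genes closest to them, each centred on its own mean; blue is the wild type, red the pmr1 deletion, and symbols mark the replicate number. In all 6 genes the wild-type arrays lie above 0.3 and the deletion arrays below -0.4. The genes beside HXT4 and HXT7 were picked for closeness over these arrays, so their split by strain follows from the choice.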

How the data were processed

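The values are those that the authors deposited, log2 signals per probe set. The submitters' processing notes name GCOS, RMA and limma without versions. RMA corrects background, sets arrays to a common distribution and compresses large folds. The table holds 10928 probe sets on 6 arrays, and 0 columns belong to other samples. By its annotation, 5498 probe sets for 5449 S. cerevisiae genes were tested. Probe sets taken as S. pombe (1746), control (213) and other (3471) probe sets served only for background or were left out. Symbols were updated through the R64 gene table for 12 probe sets. No genome build is named in the sources used here for the array, so genes are given without coordinates. Strains were compared with limma 3.58.1 in R 4.3.3 (lmFit, eBayes, two-sided), after tests on simulated data. Figures used matplotlib 3.10.9. The number of arrays limits the precision, and the SE of a log2 change had a median of 0.0477.

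Array medians were 10.34 to 10.39. Members and gene lists were chosen with earlier results of these data known. Up to 3 called genes with the largest change are named per list, all of the hexose kinases, and the 3 genes closest to each member at least 2-fold changed. Deviations of same-numbered arrays from their group means correlated at -0.14, 0.0003 and 0.08. For arrays with different numbers the correlations ran from -0.14 to 0.15. Same-numbered arrays were thus no more alike over all probe sets, which cannot decide whether the samples were paired.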

Additional observations from a re-analysis of the deposited data

How the results depend on the processing

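The falls of HXT3, HXT4 and HXT7 kept their direction and their side of the threshold under all 16 alternatives (15 for HXT7, which has no value without _s_at and _x_at probe sets). When every probe set on the array was tested, HXT1 (-0.22, adjusted p = 0.0585) and HXT5 (-0.64, 0.115) missed the threshold, 3 members were lower, 548 probe sets were higher and 325 lower, against 963 and 642 in the main test, and 7 list genes outside the members were higher, against 16. More probe sets enter the adjustment there, and the moderated variances are estimated over them as well. With array weights, 1087 probe sets were lower, 28 list genes were higher and 20 lower, against 13, and SNF3 was lower (-0.18, adjusted p = 0.0153). Deletion replicate 1 dominated that setting, with a weight of 4.79 beside 0.37 to 1.62 for the other arrays. SNF3 also passed with renewed quantile scaling (-0.17) and cyclic loess (-0.19). The cause of these shifts was not tested. RGT2 changed sign at a size near 0 with quantile scaling (-0.0056) and cyclic loess (-0.012).

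With the replicate block, HXT5 missed the threshold (-0.64, adjusted p = 0.0519) and SNF3 passed (-0.16, 0.0334), and it changed no other call among the members.

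Leaving out 1 array at a time gave -0.26 to -0.20 for HXT1, -0.12 to -0.025 for HXT2, -0.36 to -0.27 for HXT3, -1.94 to -1.74 for HXT4, -0.78 to -0.39 for HXT5, -1.56 to -1.34 for HXT7, -0.030 to 0.071 for GAL2, -0.23 to -0.12 for SNF3 and -0.019 to 0.034 for RGT2. GAL2 changed sign without wild-type replicate 3 (-0.0094) and deletion replicates 1 (-0.030) or 3 (-0.00028), and RGT2 without wild-type replicate 1 (-0.019) or deletion replicate 2 (-0.0037). Probe sets higher numbered 599 to 1041 and lower 373 to 629, members lower 3 to 6, and list genes higher 10 to 21 and lower 10 to 14. Besides the members, 33 genes were followed singly, namely PMR1, the genes closest to HXT4 and HXT7, and the called genes of the lists. Of these, 20 kept every call and 13 lost theirs under at least 1 alternative, with 0 reversals. The calls of HSP26, HSP12, DDR2, EMP46, ADI1, SEC31 and MRP1 were not tested in this way. A background at the 99th percentile gave no further value, since no member lay below it.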

Other observations

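Genes next to the transporter and sensor genes were examined as a set of 26 non-members within 2 genes on either side, by the R64 gene table, of which 21 were measured. By limma 3 were higher and 1 lower, beside 17.5% and 11.7% of all probe sets, and no log2 change exceeded 0.43 in size. EMP46, beside GAL2 and encoding a cargo receptor of vesicles between the ER and the Golgi, was higher by 0.43 (adjusted p = 0.000417). ADI1, beside HXT2 and encoding an enzyme of methionine salvage, was higher by 0.30 (adjusted p = 0.00574), and SEC31, a vesicle coat gene beside SNF3, by 0.19 (adjusted p = 0.0351). The 1 lower gene was MRP1, a mitochondrial ribosomal protein gene near HXT3.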
